A study of Mus musculus with 18 samples.

Results

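Serpins are a family of proteins that share one fold, and most of them inhibit serine proteases. An inhibitory serpin offers an exposed loop as bait, and when the protease cuts the loop the serpin changes shape and traps the enzyme in a covalent complex. The liver makes most of the serpins of blood plasma, which hold clotting, fibrinolysis, complement and leukocyte proteases in check, and a few members have given up inhibition to carry hormones or to serve as chaperones. Genes were taken as serpins when their symbol began with Serpin, a clade letter from a to i and a number, and pseudogenes were left out. By this rule 63 of the 37303 genes in the table were serpins, and 34 of them had an FPKM over 1 in at least 1 group with a usable estimate. Just inside that limit were Serpina3h and a second identifier named Serpina11, both with a highest value of 1.48. The genes just outside it were Serpina9, with a highest value of 0.931, and Serpinb5 with 0.885.

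The livers came from 18 C57BL/6J mice of both sexes, 3 in each of 6 groups. Wild type mice (WT), mice without Gcn2 (Gcn2-/-) and mice without Atf4 (Atf4-/-) received either asparaginase (ASNase) or phosphate buffered saline (PBS). GCN2 is a kinase that senses amino acid shortage and phosphorylates eIF2, ATF4 is the transcription factor that is then translated more, and asparaginase is a bacterial enzyme drug that removes asparagine from the blood. The question of the series is which part of the liver's response to asparaginase needs each of these genes. ASNase was given intraperitoneally at 3 IU per gram body weight once a day on 8 days, PBS mice received the same volume, and livers were taken 7.5 h after the last injection by the labels. Ages in the sample labels ran from 8 to 16 weeks, and the protocol text gives a lower upper age. Both deletions were homozygous and present in the whole body, so that the liver was not the only organ to lack the gene. Of the 3 mice, 1 was male in WT PBS, Gcn2-/- PBS and Gcn2-/- ASNase, and 2 were male in WT ASNase, Atf4-/- PBS and Atf4-/- ASNase.

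Poly-A RNA was sequenced, and the deposited table gives each gene 1 FPKM (a count of fragments scaled to transcript length and to library size) per group with a lower and an upper bound. There are no values of single mice in it, so values are given with their bounds in square brackets and without SD, and no difference has a replicate check or a p-value. The reads behind each value are not in the table, and the precision was read from the bounds. The median distance from a value to its bound was between 51.3% and 54.2% of the value in the 6 groups. Differences are given on the log2(FPKM + 0.1) scale, on which the changes of genes with low values look smaller than they are. A gene could be called in a comparison when both values were usable and above 0 and either exceeded 3 FPKM. It was called when the log2 difference also exceeded 1.5 in size and the bounds of both values did not overlap. Hepatocyte markers were present in every group, with 12 of 12 usable markers over 1 FPKM, while Alb had no usable value. Skeletal muscle markers set the WT groups apart, with a summed FPKM of 967 and 1370 in WT PBS and WT ASNase against 10.6 to 173 in the other 4 groups. The values of Eif2ak4, the gene of GCN2, lay between 2.19 and 3.14 in all groups, and those of Atf4 were 32.3 and 29.3 in Atf4-/- livers against 50.4 to 68.1 elsewhere. Values over a whole gene include the parts that a deletion leaves in place, so they do not check the labels. In whole liver, fewer cells of a type and less RNA per cell cannot be told apart.

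Of the 34 serpins over 1 FPKM, 19 were in clade a, 7 in clade b, 2 each in clades e and f, and 1 each in clades c, d, g and h. In 27 of them all 6 values were usable, and 7 copies of Serpina1 and Serpina3 lacked a usable value in at least 1 group. A further 29 serpins stayed at or under 1 FPKM, and 8 of these are listed at 0 in all 6 groups. Clade b supplied 20 of the 29, which included most of the copies named Serpinb3, Serpinb6 and Serpinb9. Serpini1 and Serpini2, the clade i genes, did not exceed 0.274 FPKM.

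**Figure D1:**
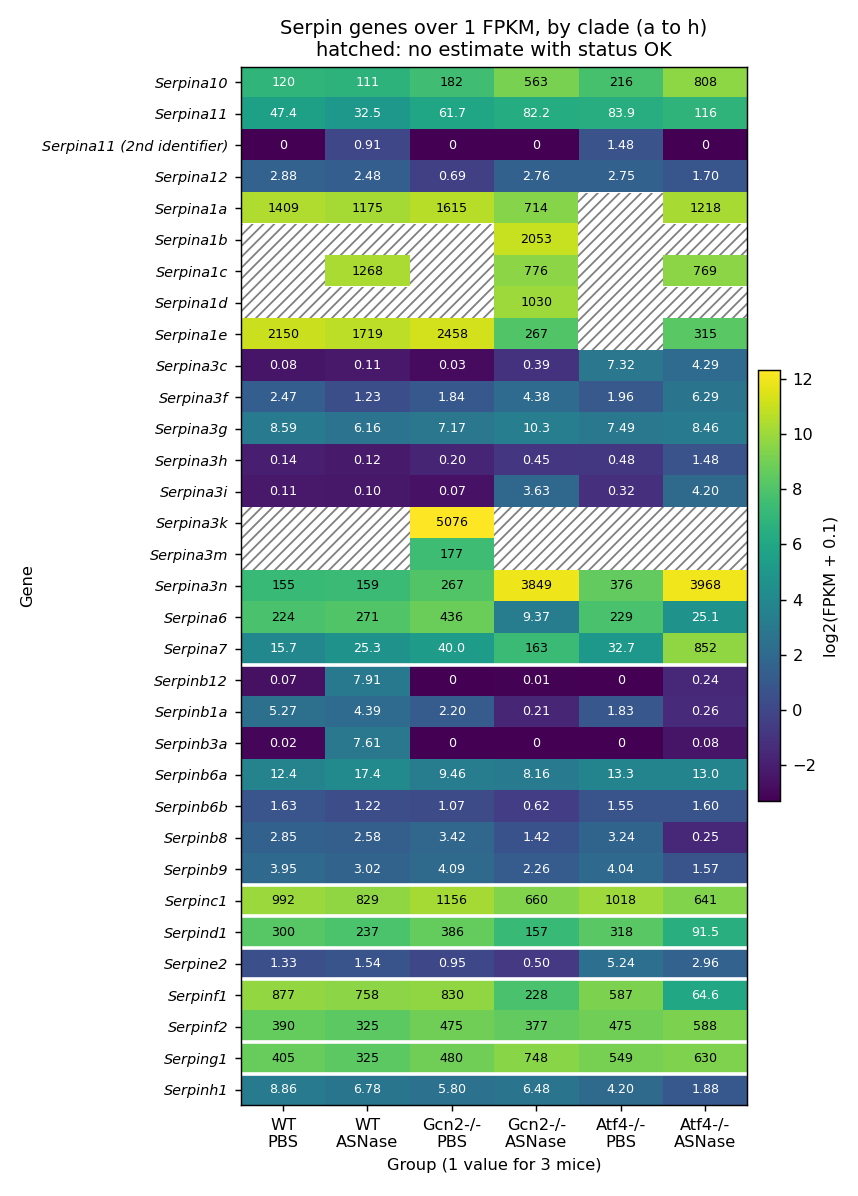
FPKM of 33 serpin entries over 1 FPKM (rows, by clade) in the 6 groups (columns), 1 value for 3 mice, with colour on the log2(FPKM + 0.1) scale and hatching where no estimate was usable. In Gcn2-/- and Atf4-/- the ASNase column is darker than the PBS column for Serpina6 and Serpinf1 and brighter for Serpina10 and Serpina3n, while Serpinc1 stays between 641 and 1156.

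Few serpins were called after ASNase in WT livers, and others were called in the knockout livers. In WT livers 2 of 19 eligible serpins were called higher after ASNase, Serpinb3a and Serpinb12, where 0.881% of all eligible genes were called, 0.76% higher and 0.121% lower. In Gcn2-/- livers 3 of 20 were called, where 3.69% of all genes were, 1.56% higher and 2.13% lower. Among them the steroid carrier Serpina6 and the angiogenesis inhibitor Serpinf1 were lower. In Atf4-/- livers the call fell on the same 3 genes among 20 eligible, each in the same direction as in Gcn2-/- livers. The share over all genes was 7.37% there, 2.74% higher and 4.63% lower. Each knockout was set against its own PBS group, so these responses share no samples. Of 18 serpins eligible in both knockouts 3 were called in both, beside 2.28% of all genes. A difference past 1.5 with overlapping bounds was seen for 5 more serpins in Gcn2-/- livers and 7 more in Atf4-/- livers. Without the condition on the bounds 6.58% and 12.2% of all genes passed. The median log2 difference of the eligible serpins was -0.26, -0.03 and 0.07 in WT, Gcn2-/- and Atf4-/- livers, beside -0.01, 0.02 and 0.08 over all genes. The Atf4-/- median of the serpins changed sign, to -0.11, without the FPKM limit.

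**Figure D2:**
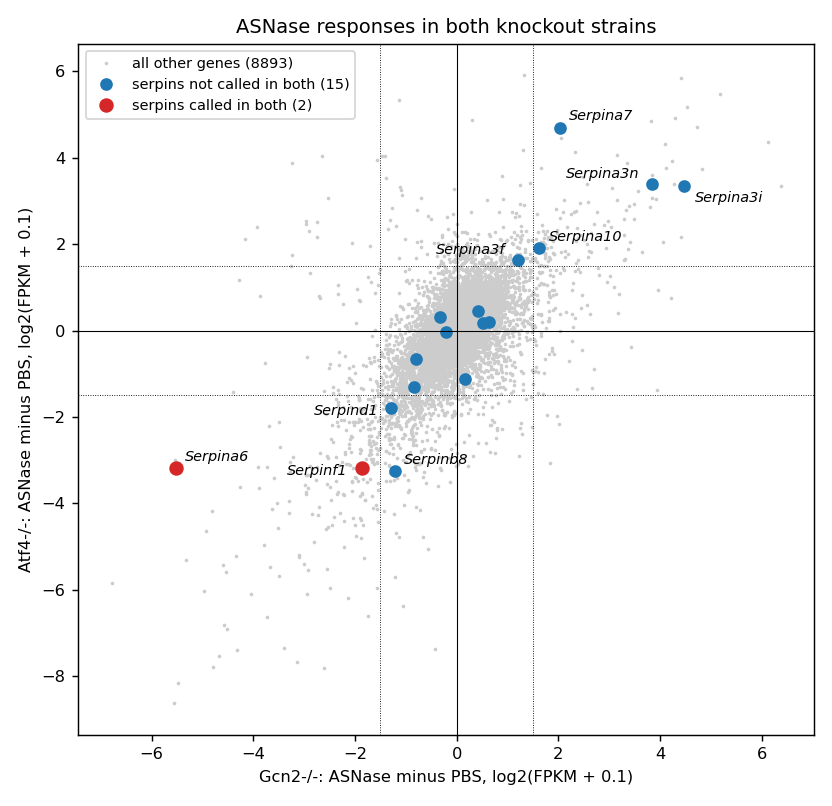
Each point is 1 gene eligible in both knockouts, with its ASNase minus PBS difference on the log2(FPKM + 0.1) scale in Gcn2-/- livers (x axis) and Atf4-/- livers (y axis), and dotted lines at 1.5. Of the 17 serpins drawn, the 2 in red (Serpinf1 and Serpina6) were called in both strains.

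Between strains, more serpins were called between each knockout and WT after ASNase than under PBS. Under PBS none of 18 serpins was called between Gcn2-/- and WT livers, where 1.04% of all genes were, 0.392% higher and 0.65% lower. Serpina3c and Serpine2 were called higher in Atf4-/- livers, as 2 of 18 against WT and 2 of 17 against Gcn2-/-. These genes were eligible there only through Atf4-/- PBS, at 7.32 and 5.24 FPKM, and so could be called only as higher. Against WT 1.12% of all genes were called, 0.354% higher and 0.763% lower, and against Gcn2-/- 0.976%, 0.544% higher and 0.433% lower. After ASNase 7 of 22 serpins were called between Gcn2-/- and WT livers, 3 higher and 4 lower, where the share over all genes was 4.41%, 1.83% higher and 2.59% lower. Between Atf4-/- and WT livers 11 of 24 were called, 5 higher and 6 lower, where the share over all genes was 8.25%, 2.59% higher and 5.66% lower. Serpinb12 is among the lower genes in both of these comparisons and Serpinb3a in that of Atf4-/- livers. Both were eligible only through WT ASNase, at 7.91 and 7.61 FPKM, and the same WT ASNase values were called against WT PBS. Between the knockouts after ASNase 3 of 20 were called, Serpina3c higher and Serpinf1 and Serpinh1 lower in Atf4-/- livers, with 3.19% of all genes called, 0.898% higher and 2.29% lower. In all 9 comparisons together 12 serpins were called at least once, and Serpinf1 most often, in 5. In their calls after ASNase, Serpina3c, Serpina3f, Serpinb1a and Serpinh1 were also over the FPKM limit only in the group where they were higher. Comparisons that share a group are not independent of each other.

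The clade a gene Serpina6 encodes corticosteroid-binding globulin, a serpin without protease inhibition that carries glucocorticoids in plasma. It lies on chr12:103646630-103657212. Serpina6 had an FPKM of 224 [105 to 343] in WT, 436 [211 to 661] in Gcn2-/- and 229 [85.5 to 373] in Atf4-/- livers under PBS, and of 271 [108 to 434], 9.37 [4.74 to 14.0] and 25.1 [13.8 to 36.3] in these strains after ASNase. Both ASNase knockout groups lay below the other 4 groups without overlap, and their own bounds met at 13.8 and 14.0. After ASNase it was 46.5-fold lower in Gcn2-/- livers (log2 difference -5.52) and 9.15-fold lower in Atf4-/- livers (-3.19), and the WT difference was 0.28. Against WT ASNase the Gcn2-/- value was 28.9-fold lower and the Atf4-/- value 10.8-fold lower. Serpina7, on the X chromosome, encodes thyroxine-binding globulin, the other hormone carrier of the clade. Serpina7 had an FPKM of 15.7 in WT, 40.0 in Gcn2-/- and 32.7 in Atf4-/- livers under PBS, and of 25.3, 163 [1.05 to 325] and 852 [0 to 1796] in these strains after ASNase. The ASNase difference was 2.03 in Gcn2-/- and 4.70 in Atf4-/- livers and was not called, since the bounds reached down past the PBS values.

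Serpinf1 encodes pigment epithelium-derived factor, a secreted non-inhibitory serpin known for restraining blood vessel growth. It lies at chr11:75409769-75422701, and its neighbour Serpinf2 lies 9030 bp away. Serpinf1 had an FPKM of 877 [332 to 1423] in WT, 830 [341 to 1318] in Gcn2-/- and 587 [265 to 909] in Atf4-/- livers under PBS, and of 758 [347 to 1169], 228 [117 to 340] and 64.6 [35.3 to 93.9] in these strains after ASNase. The Atf4-/- ASNase value was the lowest and lay apart from every other group. After ASNase the gene was 9.09-fold lower in Atf4-/- livers (-3.18) and 3.64-fold lower in Gcn2-/- livers (-1.86), where the bounds 340 and 341 only just cleared each other. With groups scaled by the median ratio of their genes the Gcn2-/- bounds overlapped, and that call was lost at -1.85. Between the knockouts after ASNase the Atf4-/- value was 3.53-fold lower. Serpinf2 encodes the main inhibitor of plasmin, alpha-2-antiplasmin. It was at 390, 475 and 475 FPKM under PBS and at 325, 377 and 588 after ASNase, in the order WT, Gcn2-/- and Atf4-/-. The bounds of all 6 groups overlapped for Serpinf2, and it was called in no comparison.

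A composite element with the letters TGATGNAA, which ATF4 can bind together with C/EBP proteins, was searched on both strands in the 250 bases before each RefSeq start, with 3 other motifs. The 30 bases around its match in Serpinf1 are shown because this gene was called in the most comparisons, and capitals mark the element. They lie at chr11:75422636-75422665 on the minus strand of GRCm38.p6, 42 to 13 bases before the RefSeq start and inside the first, untranslated exon of a longer GENCODE transcript.
Serpinf1: acaccagacaaTGATGCAAtcacagattcc
Among 27025 promoters 3.53% held this element, and among 52 serpin promoters 3 did. Of the 25 promoters of serpins over 1 FPKM, Serpinf1 was the only one with it. A match of letters is a description of the window and not evidence of binding.

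Serpine2 encodes protease nexin 1, an inhibitor of thrombin and urokinase that binds the cell surface. Serpine2 had an FPKM of 1.33 [0.481 to 2.17] in WT, 0.952 [0.294 to 1.61] in Gcn2-/- and 5.24 [2.30 to 8.17] in Atf4-/- livers under PBS, and of 1.54, 0.504 and 2.96 [1.13 to 4.79] in these strains after ASNase. The highest values were those of the Atf4-/- groups. Under PBS the Atf4-/- value was 3.95-fold above WT (1.90) and 5.50-fold above Gcn2-/- (2.34). With a pseudocount of 1 the difference from WT was 1.42 and was not called.

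**Figure D3:**
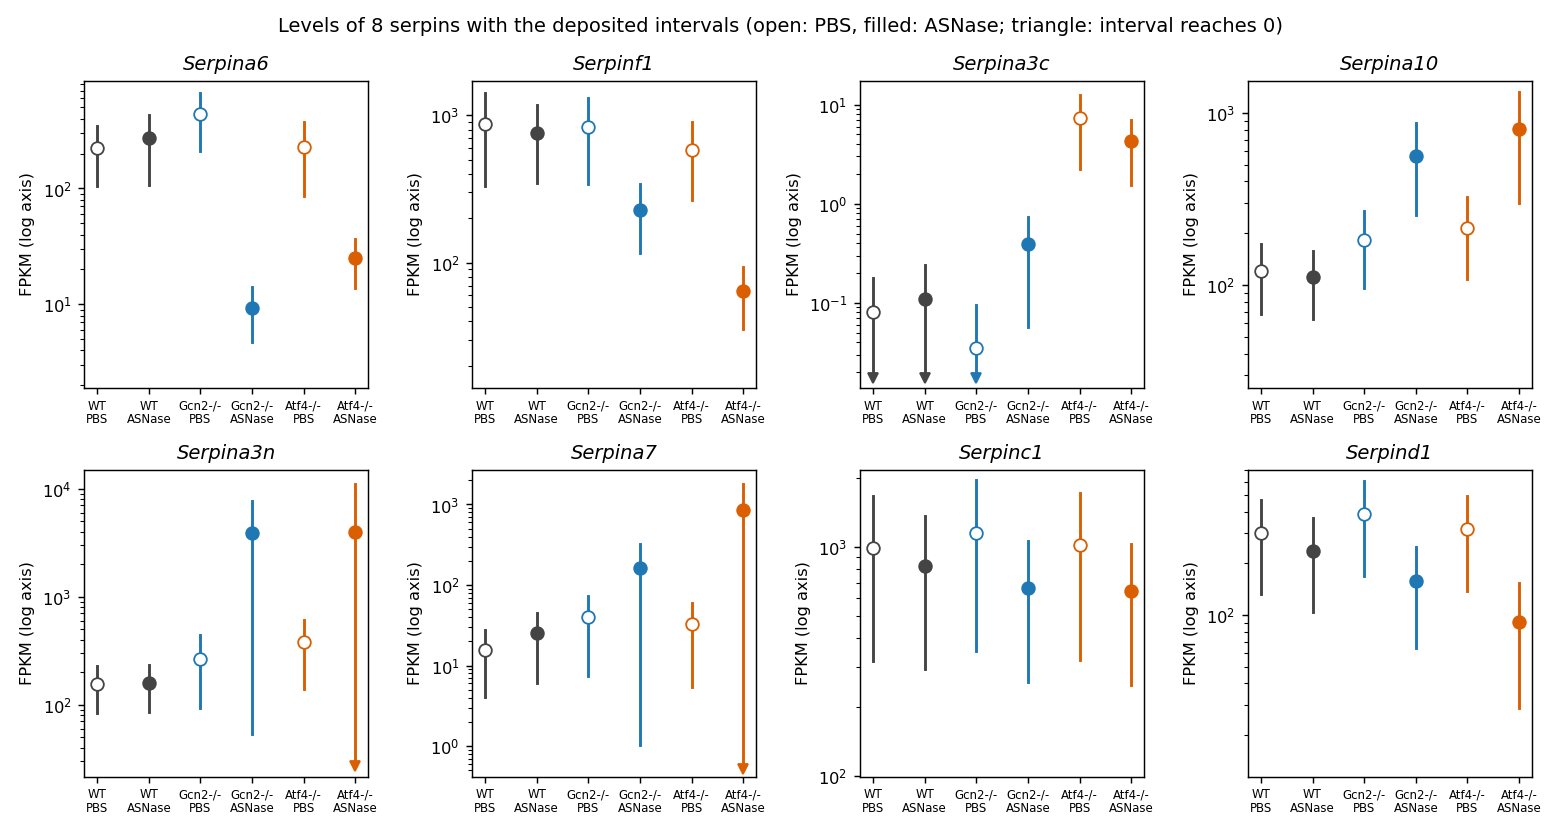
FPKM (log axis) of 8 serpins in the 6 groups, with the deposited lower and upper bounds as bars, open points for PBS and filled points for ASNase, and a triangle where a bound is 0. Serpina6 drops to 9.37 and 25.1 in the ASNase knockout groups and Serpina3c stands at 7.32 and 4.29 in the Atf4-/- groups, clear of the other 4 bars, while the bars of Serpinc1 overlap throughout.

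The clotting serpins of the liver differed in how they stood. Serpinc1 encodes antithrombin, the main inhibitor of thrombin and factor Xa. Serpinc1 had an FPKM of 992 in WT, 1156 in Gcn2-/- and 1018 in Atf4-/- livers under PBS, and of 829, 660 and 641 in these strains after ASNase, and all bounds overlapped. The ASNase difference was -0.26, -0.81 and -0.67 in WT, Gcn2-/- and Atf4-/- livers. Serpind1, the gene of the thrombin inhibitor heparin cofactor II, was at 300, 386 and 318 FPKM under PBS and at 237, 157 and 91.5 after ASNase, strains in the same order. Its ASNase difference was -1.30 in Gcn2-/- and -1.79 in Atf4-/- livers, and the Atf4-/- bounds 28.7 to 154 and 139 to 497 overlapped, so it was not called. When bounds were combined as the root of their summed squares it was called at that value.

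Serpina10 encodes the protein Z-dependent protease inhibitor, which acts on factor Xa at membranes. Serpina10 had an FPKM of 120 [67.7 to 173] in WT, 182 [96.3 to 268] in Gcn2-/- and 216 [109 to 323] in Atf4-/- livers under PBS, and of 111 [63.2 to 158], 563 [254 to 873] and 808 [298 to 1318] in these strains after ASNase. The ASNase knockout groups held the highest values. Against WT ASNase the gene was called 5.09-fold higher in Gcn2-/- and 7.30-fold higher in Atf4-/- livers. Against their own PBS groups the differences of 1.63 and 1.90 passed the limit of 1.5, but the bounds overlapped. Serping1 encodes the inhibitor of the complement proteases C1r and C1s and of plasma kallikrein. It was at 405, 480 and 549 FPKM under PBS and at 325, 748 and 630 after ASNase (WT, Gcn2-/- and Atf4-/- in turn). It was not called, and its ASNase difference was 0.64 in Gcn2-/- and 0.20 in Atf4-/- livers.

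The Serpina1 copies, mouse counterparts of alpha-1-antitrypsin, are among the most abundant liver transcripts, and their reads are hard to assign. Serpina1a was at 1409 FPKM in WT and 1615 in Gcn2-/- livers under PBS, with no usable value in Atf4-/- PBS, and at 1175, 714 and 1218 after ASNase. Serpina1e was at 2150 [0 to 4940] and 2458 [94.8 to 4821] in the same PBS groups and at 1719, 267 [78.9 to 455] and 315 [60.4 to 569] after ASNase. The ASNase difference of Serpina1e in Gcn2-/- livers was -3.20 and was not called, because the PBS bounds were wide. Serpina1c had usable values only in the ASNase groups, 1268 in WT, 776 in Gcn2-/- and 769 in Atf4-/- livers. Serpina1b and Serpina1d had one in Gcn2-/- ASNase alone, 2053 and 1030. The missing values carry the status that marks a locus with too many reads to be quantified, so they do not mean low expression. Of all stretches of 100 bases, the length of a read, the transcripts of Serpina1c shared 58.5% with another gene, those of Serpina1a 42.8%, Serpina1d 29.3%, Serpina1b 14.8% and Serpina1e 14.4%. Reads from a shared stretch cannot be given to 1 copy, so the values of single copies are uncertain.

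The copies differ in the loop that meets the protease. The 75 bases from the hinge of this loop onward are shown in the coding direction, from GENCODE M21 transcripts, because this loop is the part of the protein that a protease cuts, and capitals mark the 15 positions at which the 5 copies are not all alike.
Serpina1a: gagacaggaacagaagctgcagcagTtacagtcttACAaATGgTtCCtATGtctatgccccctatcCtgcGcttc
Serpina1b: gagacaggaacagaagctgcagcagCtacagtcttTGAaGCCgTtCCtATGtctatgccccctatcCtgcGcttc
Serpina1c: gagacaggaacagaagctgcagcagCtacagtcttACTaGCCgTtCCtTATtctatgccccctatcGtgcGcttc
Serpina1d: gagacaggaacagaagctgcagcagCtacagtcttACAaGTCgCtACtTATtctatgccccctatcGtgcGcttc
Serpina1e: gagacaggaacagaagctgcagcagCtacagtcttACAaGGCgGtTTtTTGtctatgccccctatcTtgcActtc
All lie in the last coding exon on the minus strand, at chr12:103853762-103853836 for Serpina1a, chr12:103728329-103728403 for Serpina1b, chr12:103895099-103895173 for Serpina1c, chr12:103763767-103763841 for Serpina1d and chr12:103947105-103947179 for Serpina1e (GRCm38). Serpina1c and Serpina1d were the closest pair with 4 differing bases, and Serpina1a and Serpina1e the farthest with 10.

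The Serpina3 copies are mouse counterparts of antichymotrypsin, and one of them, Serpina3n, is a known acute phase gene. Serpina3n had an FPKM of 155 [83.2 to 226] in WT, 267 [93.1 to 440] in Gcn2-/- and 376 [139 to 613] in Atf4-/- livers under PBS, and of 159 [84.6 to 233], 3849 [53.9 to 7643] and 3968 [0 to 11067] in these strains after ASNase. The 2 highest values were those of the ASNase knockout groups, 14.4-fold and 10.6-fold above their PBS groups, yet the bounds were too wide for a call. Wide bounds of this kind were also those of Serpina7 and of Serpina3i, which was at 0.0686 to 0.325 FPKM in 4 groups and at 3.63 and 4.20 in Gcn2-/- and Atf4-/- ASNase. Serpina3k was at 5076 [0 to 10877] in Gcn2-/- PBS and had no usable value elsewhere, and Serpina3m was at 177 in the same group. Acute phase reference genes moved beside Serpina3n, with 7 of 20 eligible genes called higher in Gcn2-/- livers and 6 of 20 in Atf4-/- livers after ASNase and 0 of 25 called in WT livers. Of the 26 genes of this list only 20 had a usable value in each ASNase knockout group, against 26 in WT ASNase, so these counts cover different genes. Of all genes 1.56% and 2.74% were called higher in these knockouts, and 0.881% were called in WT livers. Orm3, an acute phase plasma protein gene of this list, went from 1.01 to 92.1 FPKM in Gcn2-/- livers and from 10.9 to 111 in Atf4-/- livers. Under PBS, 3 of 25 of these genes were already called higher in Atf4-/- than in WT livers and 2 of 25 in Gcn2-/- livers, beside 0.354% and 0.392% of all genes.

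The loop of 3 Serpina3 copies is shown for comparison with the Serpina1 copies, with capitals at the 32 positions that differ among the 3.
Serpina3k: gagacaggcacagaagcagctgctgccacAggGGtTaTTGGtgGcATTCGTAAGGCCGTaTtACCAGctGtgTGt
Serpina3m: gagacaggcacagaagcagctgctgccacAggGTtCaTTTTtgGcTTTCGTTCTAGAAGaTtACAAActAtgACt
Serpina3n: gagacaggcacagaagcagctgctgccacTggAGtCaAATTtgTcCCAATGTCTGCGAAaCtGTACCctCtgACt
They lie on the plus strand in the last of 5 exons, at chr12:104345263-104345337, chr12:104393763-104393837 and chr12:104413442-104413516. Serpina3n differed from Serpina3k at 29 bases and from Serpina3m at 22, and its transcripts shared only 0.204% of their 100-base stretches with another gene. Serpina3k shared 4.85% and Serpina3m 6.09%.

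Serpina3c stood apart from the other copies, since it was found almost only in Atf4-/- livers. Serpina3c had an FPKM of 0.0814 in WT, 0.0347 in Gcn2-/- and 7.32 [2.22 to 12.4] in Atf4-/- livers under PBS, and of 0.109, 0.394 [0.0566 to 0.731] and 4.29 [1.56 to 7.01] in these strains after ASNase. Both Atf4-/- groups lay above the other 4 without overlap, and they overlapped each other. It was called in 4 comparisons, with log2 differences of 5.35 and 5.78 against WT and Gcn2-/- under PBS and 4.39 and 3.15 after ASNase. In each of them it was eligible only through the Atf4-/- value. Its transcripts shared none of their 100-base stretches with another gene. The groups also differ in sex, with 2 of 3 males in Atf4-/- PBS against 1 of 3 in WT PBS. Of the sex-biased liver genes 0 of 12 male-biased and 2 of 12 female-biased ones were called higher in that comparison, beside 0.354% of all genes. The part of sex in the difference was not tested.

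The 250 bases before its RefSeq start are shown because this gene separated the Atf4-/- groups under both treatments. They lie at chr12:104153873-104154122 on the minus strand of GRCm38.p6. Capitals mark the letters of a TATA box (TATAAA) 132 bases and a match to the palindromic glucocorticoid response element 75 bases before the start, which do not overlap. Both are matches of letters and not evidence of binding or use.
Serpina3c: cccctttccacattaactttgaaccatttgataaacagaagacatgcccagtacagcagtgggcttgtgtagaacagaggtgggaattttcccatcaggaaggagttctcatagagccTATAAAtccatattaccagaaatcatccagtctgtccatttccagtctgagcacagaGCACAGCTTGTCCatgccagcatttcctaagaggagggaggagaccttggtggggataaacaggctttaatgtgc
Of 27025 promoters 13% held the TATA box letters and 0.381% those of the glucocorticoid element, while of 52 serpin promoters 13 and 2 did. The promoters with the glucocorticoid letters were those of Serpina3c and Serpina3n. A STAT site (TTCNNNGAA) was found in 7.18% of all promoters and in 7 of 52 serpin promoters, among them Serpina3f, Serpina3g and Serpina3i. The 4 motifs were searched on both strands.

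Among the remaining clade a genes, Serpina3f was at 2.47, 1.84 and 1.96 FPKM under PBS in WT, Gcn2-/- and Atf4-/- livers and at 1.23 [0.437 to 2.03], 4.38 [2.24 to 6.51] and 6.29 [3.09 to 9.49] after ASNase. It was called higher than in WT ASNase in both knockouts, 3.55-fold and 5.10-fold, and against no PBS group. With a pseudocount of 1 the Gcn2-/- call was lost. Serpina3g, next to it on the chromosome, stayed between 6.16 and 10.3 FPKM and was not called. Serpina11, of which little is known, was at 47.4, 61.7 and 83.9 under PBS and at 32.5 [15.3 to 49.7], 82.2 and 116 [50.1 to 181] after ASNase, strains in the same order. It was called 3.56-fold higher in Atf4-/- than in WT ASNase livers, where the bounds 49.7 and 50.1 nearly met, and the call was lost after median ratio scaling. It shared 32.8% of its 100-base stretches with the second identifier of that name, which GENCODE M21 calls Gm28577, so part of its value is uncertain. Serpina12, the gene of the adipokine vaspin, ranged from 0.690 to 2.88 FPKM and was under the limit of 3 in all groups.

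Along the chromosome, 24 serpins of clade a form a cluster of 800 kb on chromosome 12, and 18 of them were over 1 FPKM. Neighbours in it could differ in direction. Serpina10 and Serpina6 lie on the same strand with 15185 bp between them, and in the Gcn2-/- livers Serpina10 differed by 1.63 after ASNase while Serpina6 fell by 5.52. In the Atf4-/- livers the differences were 1.90 and -3.19. At the other end of the cluster, the usable copies Serpina3f, Serpina3g, Serpina3h, Serpina3i and Serpina3n were all above their PBS values in Atf4-/- ASNase livers, by 0.17 to 3.40, while Serpina3c was below its own, at -0.76, and none of these was called.

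**Figure D4:**
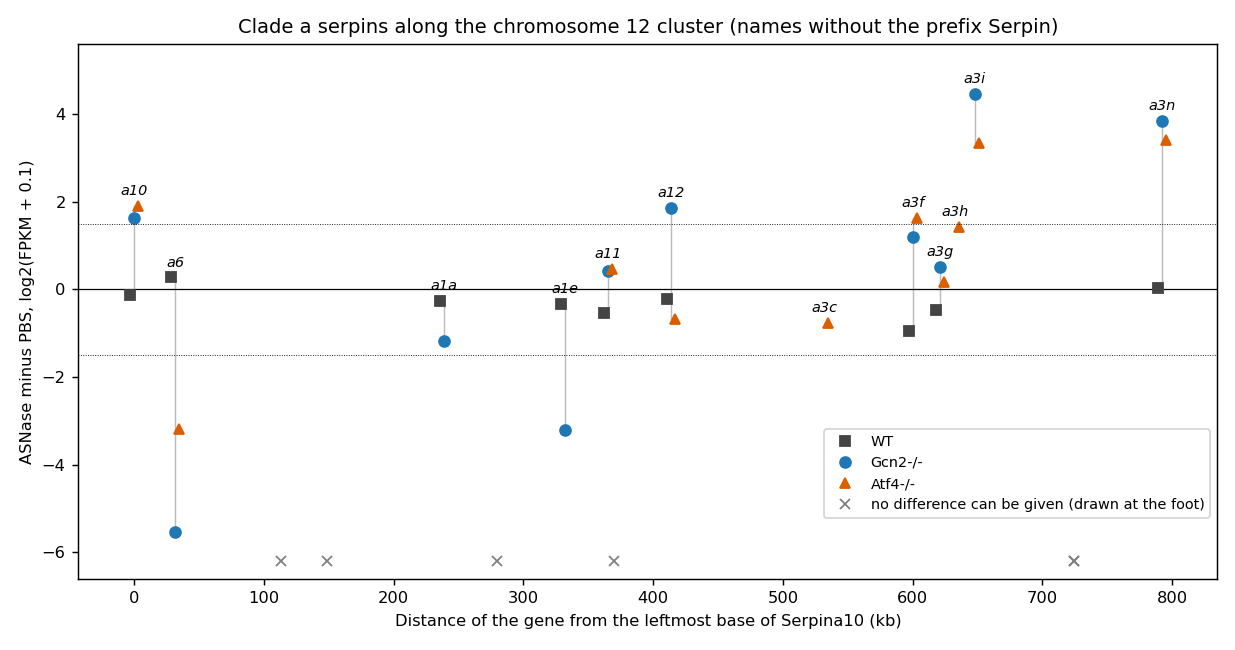
ASNase minus PBS difference on the log2(FPKM + 0.1) scale of clade a serpins over 1 FPKM, by distance of the gene from the leftmost base of Serpina10 (kb), for WT (squares), Gcn2-/- (circles) and Atf4-/- (triangles), with crosses where a pair of usable values above 0, either of them over 1 FPKM, was lacking. Serpina10 and Serpina6 are neighbours at the left and point in opposite directions, and WT squares stay between -0.94 and 0.28.

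Clade b serpins mostly lack a signal peptide and protect cells from proteases inside them. Serpinb3a and Serpinb12 were found in WT ASNase livers and almost nowhere else. The FPKM of Serpinb3a was 0.0187 in WT PBS, 7.61 [3.49 to 11.7] in WT ASNase and 0.0843 in Atf4-/- ASNase, and it is listed at 0 in the other 3 groups. Serpinb12 was at 0.0659 in WT PBS, 7.91 [3.67 to 12.2] in WT ASNase, 0.00861 in Gcn2-/- ASNase and 0.237 in Atf4-/- ASNase and is listed at 0 in both remaining groups. The ASNase difference in WT livers was 6.02 for Serpinb3a and 5.59 for Serpinb12. Against WT ASNase, Serpinb12 was called lower in Gcn2-/- livers (-6.21) and both genes in Atf4-/- livers (-5.39 and -4.57).

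Most other genes of the chromosome 1 cluster also peaked in WT ASNase, at lower levels. Of its 12 genes of clade b over 749 kb, 1 is listed at 0 throughout, and 10 of the other 11 had their highest value in WT ASNase, among them Serpinb5 at 0.885, Serpinb2 at 0.788 and Serpinb11 at 0.664 FPKM. The lower bound there was 0 for Serpinb2, Serpinb3b, Serpinb3c, Serpinb7, Serpinb10 and Serpinb13, the last at 0.0431 FPKM. The peaks of these genes were thus near the floor and not separated from 0. Of the 15 clade b genes on chromosome 13, 7 are listed at 0 throughout, and 3 of the other 8 had their highest value there. Over all 22948 genes with usable values the share was 16.6%. Keratinocyte markers moved with these genes. In WT livers 3 of 4 eligible keratinocyte markers were called higher after ASNase, where 0.76% of all genes were. Only 1 of the 10 markers exceeded 1 FPKM in WT PBS. Most of the 4 were therefore eligible only through WT ASNase and could be called only as higher. The summed FPKM of the 10 markers was 43.3 in WT ASNase against 6.16 to 9.65 in the other groups. Lor, the gene of a cornified envelope protein, went from 0.213 to 18.8 and the basal keratin gene Krt5 from 0.0466 to 6.80, while Ivl is listed at 0 in every group. In Atf4-/- ASNase livers, where Serpinb12 was at 0.237, Lor was at 1.67 and Krt5 at 1.26. The part of other tissue in the clade b values was not tested, and it cannot be said from 1 value per group how many of the 3 livers carried it.

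**Figure D5:**
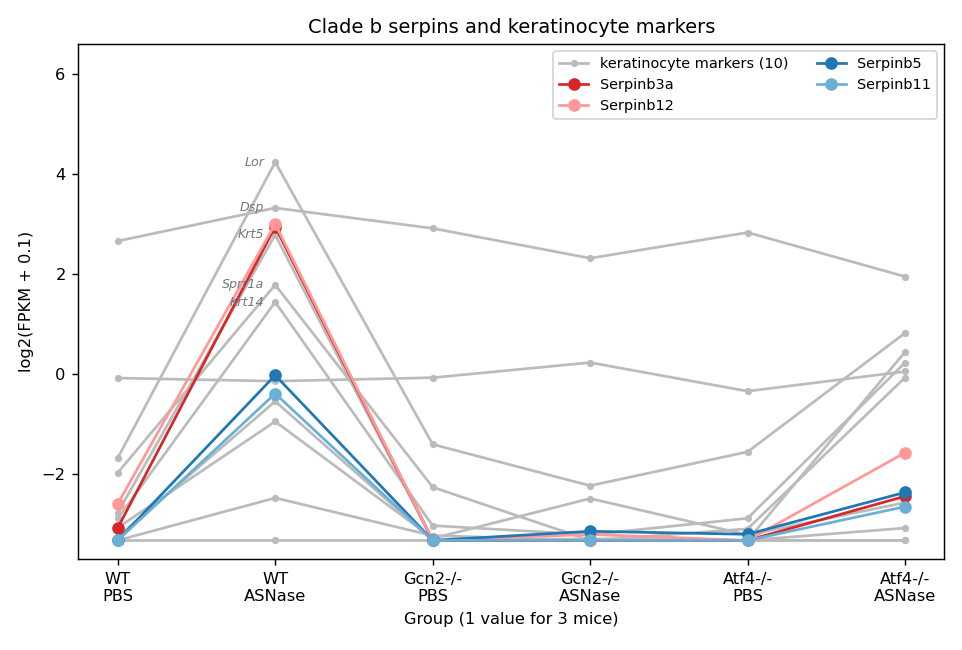
Levels on the log2(FPKM + 0.1) scale of 4 clade b serpins (colours) and 10 keratinocyte markers (grey) in the 6 groups, with lines joining the values of a gene. Serpinb3a at 7.61 and Serpinb12 at 7.91 FPKM peak in WT ASNase, where Lor (18.8) and Krt5 (6.80) peak as well.

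Serpinb1a, which encodes an inhibitor of neutrophil elastase, was low in the ASNase knockout groups. Serpinb1a had an FPKM of 5.27 [2.57 to 7.97] in WT, 2.2 [0.851 to 3.54] in Gcn2-/- and 1.83 [0.559 to 3.1] in Atf4-/- livers under PBS, and of 4.39 [1.98 to 6.79], 0.214 [0 to 0.428] and 0.261 [0.00159 to 0.521] in these strains after ASNase. It was called 20.5-fold lower in Gcn2-/- and 16.8-fold lower in Atf4-/- than in WT ASNase livers. Against their own PBS groups the differences were -2.87 and -2.42 without overlap, but neither value reached the limit of 3 FPKM. Neutrophil and monocyte markers summed to 9.78 and 6.35 FPKM in WT PBS and ASNase, 12.8 and 1.78 in Gcn2-/- and 17.2 and 6.5 in Atf4-/- livers, and their part in the value of Serpinb1a was not tested. Other clade b genes over 1 FPKM were not called. Serpinb6a, a cathepsin G inhibitor, ranged from 8.16 to 17.4 and Serpinb9, the granzyme B inhibitor, from 1.57 to 4.09. Serpinb8 was at 3.24 in Atf4-/- PBS and 0.252 in Atf4-/- ASNase, a difference of -3.25 with bounds that overlapped, and Serpinb6b ranged from 0.615 to 1.63.

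Serpinh1 encodes a collagen chaperone of the endoplasmic reticulum. Serpinh1 had an FPKM of 8.86 [4.97 to 12.7] in WT, 5.80 [3.15 to 8.46] in Gcn2-/- and 4.20 [2.13 to 6.27] in Atf4-/- livers under PBS, and of 6.78 [3.62 to 9.93], 6.48 [3.21 to 9.75] and 1.88 [0.783 to 2.98] in these strains after ASNase. The lowest value was that of Atf4-/- ASNase, which was called 3.60-fold lower than WT ASNase (-1.79) and 3.44-fold lower than Gcn2-/- ASNase (-1.73) but not lower than its own PBS group (-1.12). With a pseudocount of 1 both differences, -1.43 and -1.38, were under the limit. Markers of stellate cells and fibroblasts, which make collagen, had 5 of 10 eligible genes called lower in Atf4-/- than in WT ASNase livers, with a median of -1.75. Of all genes 5.66% were called lower there. Against Gcn2-/- ASNase 1 of 6 markers was lower and 1 higher, with a median of -0.05, beside 2.29% and 0.898% of all genes. The part of these cells in the level of Serpinh1 was not tested.

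Whether a response itself differed between strains was judged from the difference of the log2 changes. A gene passed when this was over 1.5 and over the combined error of the 4 values, a laxer rule than that for a call. Between Gcn2-/- and WT livers 4 of 16 serpins passed, Serpina6 (-5.80), Serpina3n (3.81), Serpina10 (1.75) and Serpinf1 (-1.65), where 4.61% of all genes did. Serpinf1 passed narrowly, with a combined error of 1.62, and Serpina1e at -2.88 just missed, with an error of 2.9. Between Atf4-/- and WT livers 5 of 14 passed, Serpina7 (4.02), Serpina6 (-3.46), Serpina3n (3.36), Serpinf1 (-2.97) and Serpina10 (2.02), where 7.39% of all genes did. Between the knockouts 1 of 18 passed, Serpina6, whose fall was 2.34 smaller in Atf4-/- than in Gcn2-/- livers, and 4.2% of all genes passed. Serpina3n, Serpina7 and Serpina10 passed against WT although none of them was called against its own PBS group. The lower bounds of Serpina3n and Serpina7 in Atf4-/- ASNase were 0. The combined error uses only the distance from each value to its upper bound, so a lower bound of 0 does not widen it.

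Hepatocyte markers stood as follows beside the plasma serpins. Their summed FPKM went from 54800 to 23400 in Gcn2-/- and from 41100 to 13300 in Atf4-/- livers after ASNase, and from 51300 to 41700 in WT livers. Of 12 eligible markers 0 were called in Gcn2-/- livers, with a median of -0.77, and 2 were called lower in Atf4-/- livers, Fabp1 among them, with a median of -0.89. Of all genes 3.69% were called in Gcn2-/- livers and 4.63% lower in Atf4-/- livers. The part of hepatocyte loss in any serpin value was not tested.

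Of the integrated stress response genes that lie downstream of ATF4 in textbook accounts, 2 of 15 were called higher after ASNase in WT livers, Fgf21 and Trib3. In Gcn2-/- livers 1 of 12 was higher and 1 lower, and in Atf4-/- livers 7 of 13 were higher. The shares over all genes called higher were 0.76%, 1.56% and 2.74% in WT, Gcn2-/- and Atf4-/- livers, and 2.13% were called lower in Gcn2-/- livers.

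Angiotensinogen, a serpin by fold whose symbol Agt is outside the rule, was at 290, 270 and 304 FPKM under PBS and at 241, 217 and 210 after ASNase (WT, Gcn2-/- and Atf4-/- in turn) and was not called. Of other protease inhibitors of plasma and tissue, 1 of 25 was called higher after ASNase in WT livers, 2 of 24 higher in Gcn2-/- livers and 3 of 25 lower in Atf4-/- livers. Of all genes 0.76% and 1.56% were called higher in WT and Gcn2-/- livers and 4.63% lower in Atf4-/- livers, so these counts are of a few genes. Slpi, an inhibitor of leukocyte elastase, went from 5.47 to 59.6 FPKM in WT and from 6.62 to 45.7 in Gcn2-/- livers. A2m, the gene of alpha-2-macroglobulin, went from 0.0417 to 4.96 in Gcn2-/- livers. In Atf4-/- livers Mug2, a murinoglobulin of the same family, went from 183 to 16.7, Spp2 from 126 to 27.1 and Pebp1 from 335 to 106.

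Proteases that serpins inhibit were called in WT and Atf4-/- livers after ASNase, 3 of 22 higher in WT, 4 higher and 3 lower of 24 in Atf4-/- and 0 of 19 in Gcn2-/- livers. Of all genes 0.76% were called higher in WT, 2.74% higher and 4.63% lower in Atf4-/- and 3.69% in Gcn2-/- livers. The proteases called higher in WT, Ctrb1, Prss2 and Cela3b, are digestive enzymes of the pancreas. Their genes were also called in Atf4-/- livers, together with the tissue kallikrein gene Klk1. Ctrb1, a chymotrypsinogen gene, went from 0.245 to 19.7 in WT and from 0.383 to 176 in Atf4-/- livers. Ctrb1, Prss2 and Cela3b are also in the list of pancreatic acinar markers, so the rise of that list is not separate from theirs. Its summed FPKM was 73.4 in WT ASNase and 362 in Atf4-/- ASNase against 5.47 to 16.1 in the other groups. Only 1 acinar marker exceeded 1 FPKM in WT PBS and 2 did in Atf4-/- PBS. Most eligible ones were so only through ASNase and could be called only as higher. Pnlip, a marker outside the protease list, was called higher after ASNase in WT and Atf4-/- livers. In Gcn2-/- livers 10 of the 13 markers are listed at 0 in each group and 1 was eligible, so most of them could not be called there. The 3 proteases called lower in Atf4-/- livers, named after their values were seen, are made by the liver. Klkb1, the gene of plasma kallikrein, went from 87.4 to 4.89, F11, that of coagulation factor XI, from 42.4 to 4.89, and Tmprss6 from 167 to 50.9.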

How the data were processed

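Liver RNA of 18 mice was compared in 6 groups formed from the sample labels. The authors made poly-A libraries with single-end reads of 100 bases, mapped the reads to mm10 (TopHat, Bowtie), built transcripts from them (Cufflinks, Cuffmerge) and estimated expression with Cuffdiff. The deposited FPKM values and their bounds, also in FPKM, are Cuffdiff estimates pooled over the 3 libraries of a group, each with a status. Each column of values belonged to 1 of the groups, and 0 were left out. Depth per library is not in the table, so no interval for counting error was computed.

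Values with a status other than OK (45 genes in at least 1 group) were left out, and an exact 0 is given only as listed at 0. Groups were compared on log2(FPKM + 0.1) over the whole table by the limits given above, which are those of the study for fold and FPKM, with the bounds in place of its q value. The planned linear model (limma) needs values of single libraries and could not be fitted. Simulated data with known changes were used to test the calls. The serpin rule, gene lists, markers and motifs were chosen with earlier results of these data known. Every serpin over 1 FPKM but 1, which is counted and not reported here, is given, with all 6 values for each called one and for clades c, d, f, g and h. Called genes of a list are named by the size of their difference, at most 4 in a comparison, and 3 proteases were named beyond that. Positions and transcripts are from GENCODE M21 (GRCm38, which is mm10), where all 63 identifiers matched, and promoters from RefSeq (GRCm38.p6), where 52 symbols matched. Python 3.11.15, pandas 2.3.3, numpy 2.4.6, biopython 1.88 and matplotlib 3.10.9 were used.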

Additional observations from a re-analysis of the deposited data

How the results depend on the processing

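Counts of called serpins were recomputed with a pseudocount of 1 or 0.01, an FPKM limit of 1, 10 or none, a log2 limit of 1, combined bounds, no condition on the bounds, and median ratio scaling. With an FPKM limit of 10 the count in WT livers after ASNase went from 2 to 0, Atf4-/- PBS against WT and against Gcn2-/- from 2 to 0 each, Gcn2-/- against WT ASNase from 7 to 4, Atf4-/- against WT ASNase from 11 to 5, and Atf4-/- against Gcn2-/- ASNase from 3 to 1. With a limit of 1 or none, 5 serpins were called in Gcn2-/- livers after ASNase, Serpina12 and Serpinb1a in addition to the 3, and 1 (Serpina12) rather than 0 between Gcn2-/- and WT PBS. Without the condition on the bounds the counts were 8 and 10 in Gcn2-/- and Atf4-/- livers after ASNase, 11 for Gcn2-/- against WT ASNase and 5 for Atf4-/- against Gcn2-/- ASNase. Combined bounds gave 6 in Atf4-/- livers after ASNase. A pseudocount of 1 left 1 of 2 between Atf4-/- and WT PBS. With that pseudocount or with median ratio scaling, 2 responses rather than 1 differed between the knockouts. Of the 33 single differences called, 4 lost the call with a pseudocount of 1, 17 with the FPKM limit of 10 by its construction, and 2 with median ratio scaling. That 0 reversed says nothing further, since none of these settings could turn the sign of a call. The limits leave the difference as it is, a pseudocount keeps its sign, and the scale factors were 0.978 to 1.03. The median difference of the eligible serpins moved by over 0.1 in 3, 4 and 4 of 9 comparisons with an FPKM limit of 1, 10 and none. After ASNase it was then -0.21 in Gcn2-/- livers with the limit of 1, 0.25 in Atf4-/- livers with that of 10, and -0.12 in WT and -0.11 in Atf4-/- livers with none. No paired analysis was possible because the table holds 1 value per group and no value of a single library, and for the same reason no replicate could be left out in turn. The width of the bounds sets what could be called: Serpina3n and Serpina7, with differences of 2.03 to 4.70 in the knockouts, could not be called against their PBS groups under the main limits.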

Other observations

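Pseudogenes, which the serpin rule leaves out, also lie in the chromosome 12 cluster and 2 of them exceeded 1 FPKM. Serpina4-ps1 was at 14.8 [7.54 to 22.1] FPKM in WT PBS, 16.2 [6.01 to 26.4] in WT ASNase, 25.8 [11.1 to 40.6] in Gcn2-/- PBS, 12.4 [5.95 to 18.9] in Gcn2-/- ASNase, 43.7 [21.3 to 66.0] in Atf4-/- PBS and 0.429 [0.0218 to 0.837] in Atf4-/- ASNase. By the same limits it was called lower in Atf4-/- ASNase livers against their PBS group (-6.37), against WT ASNase (-4.95) and against Gcn2-/- ASNase (-4.57). It was not called after ASNase in Gcn2-/- livers (-1.05). Serpina3e-ps is listed at 0 in both WT groups and in Gcn2-/- ASNase, and was at 0.0151 in Gcn2-/- PBS, 1.19 [0 to 2.39] in Atf4-/- PBS and 6.66 [2.27 to 11.1] in Atf4-/- ASNase. Both were picked after their values were seen.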
